A study of Mus musculus with 10 samples.

Results

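Nucleic acid sensing genes were described by their open chromatin in Myc-CaP cells. The members were 8 genes, namely Cgas, Tmem173 (which encodes STING), Tbk1, Ddx58 (RIG-I), Ifih1 (MDA5), Mavs, Zbp1 and Trex1. Every accessible region that overlapped one of them or the 10 kb on either side was taken, with gene positions from GENCODE M21 on mm10. This gave 38 merged regions of 211107 over the 5 peak lists, and each of the 8 genes had at least 1. Of these regions, 37 were strong in at least 1 list, meaning that MACS2 gave them a q-value of at most 0.01, against 203916 over the genome. The lists held 22 deposited intervals at the 8 genes of 122298 in Ctrl, 23 of 158621 after Oxali, 33 of 174048 after Cispl, 24 of 118949 after IFNγ and 25 of 174709 after Oxali + IFNγ.

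Myc-CaP is a mouse prostate cancer line, of the FVB/NJ strain and male per the labels, derived from a tumour driven by a MYC transgene under a probasin promoter. All 5 groups are this 1 line, sampled at 48 h. Ctrl cells had no agent, Oxali cells 2 µM oxaliplatin, Cispl cells 2 µM cisplatin, IFNγ cells 1000 pg/ml interferon-γ (the amount per the labels, the volume per the methods), and Oxali + IFNγ cells both oxaliplatin and interferon-γ at these amounts. Each group had 2 ATAC-seq libraries that the authors pooled before peak calling, so a group is 1 list, nothing can be set against the spread between replicates, and no test was possible. Intervals below cover counting error only.

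Cells detect misplaced nucleic acids through a small set of sensors. cGAS binds double-stranded DNA in the cytosol and makes cyclic GMP-AMP, which activates the adaptor STING, while RIG-I and MDA5 bind double-stranded or 5′-triphosphate RNA and signal through the adaptor MAVS on mitochondria. Both arms meet at the kinase TBK1, which phosphorylates IRF3 so that type I interferon is transcribed, and TREX1 limits the DNA arm by degrading cytosolic DNA. ZBP1 recognises Z-form nucleic acids and can trigger necroptosis. Several of these genes, among them Ddx58, Ifih1 and Zbp1, are known as interferon-inducible genes, and damaged DNA is a known source of ligands for cGAS.

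Each region is described by its pileup and its level. The pileup is the number of read ends within 75 bases of the summit. The level is the pileup divided by the genome background of its list, which is proportional to depth and was 12.1 in Ctrl, 11.3 after Oxali, 13.8 after Cispl, 9.62 after IFNγ and 12.9 after Oxali + IFNγ. At the genome background a region entered a list from a level of 1.70 to 1.96, the highest limit being that of the Cispl list, so a region missing from a list may still have been open below that limit or over a stretch shorter than 150 bp. Among the 5 prostate epithelial markers reported here, Krt8 and Hoxb13 had an open start site in every list, Krt18 in 2 lists and Epcam in 1, while Cdh1 had one in none. Of 4 leukocyte markers 1 to 2 were open per list, with levels of at most 10.7, and of 2 endothelial markers 0 to 1. Ptprc, a leukocyte gene, was open in the 3 platinum lists alone, at levels of 2.47 to 2.93, and the part of other cell types in the results was not tested.

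The 8 genes split by their start sites. A strong region within 1 kb of a start site was present in every list at 5 genes (Mavs, Tbk1, Trex1, Ddx58 and Cgas) and missing from at least 1 list at 3 (Ifih1, Tmem173 and Zbp1). Over 21923 protein-coding genes, 60.8% had such a region in Ctrl, 60.2% to 64.5% per list, and 33.5% had one in no list.

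The adaptor gene Mavs had the highest start-site level, with a summit 88 bp upstream of the annotated start (chromosome 2). Its pileup was 1705 in Ctrl, 1101 after Oxali, 1171 after Cispl, 1129 after IFNγ and 1135 after Oxali + IFNγ, which are levels of 140, 97.7, 85.1, 117 and 87.9. The kinase gene Tbk1 (chromosome 10, summit 23 bp upstream) had pileups of 1533, 883, 838, 809 and 701 in the same order, or levels of 126, 78.3, 60.9, 84.1 and 54.3. On this scale both genes had their highest level in Ctrl, and no 95% Poisson interval of a treated list reached that of Ctrl. The exonuclease gene Trex1 (chromosome 9) was also highest in Ctrl on this scale, with pileups of 1266, 858, 871, 828 and 819 and levels of 104, 76.1, 63.3, 86.1 and 63.5. Its start site lies in a region that also holds a start site of Atrip, so the signal cannot be assigned to 1 of these genes.

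The sensor genes Ddx58 and Cgas had open start sites of a lower level. At Ddx58 (chromosome 4, summit 2 bp downstream of the start) the pileup was 377 in Ctrl, 394 after Oxali, 413 after Cispl, 237 after IFNγ and 402 after Oxali + IFNγ, for levels of 31.1, 35.0, 30.0, 24.6 and 31.1. At Cgas (chromosome 9, summit in a coding exon, 393 bp downstream) it was 333, 300, 302, 192 and 303, for levels of 27.4, 26.6, 21.9, 20.0 and 23.5. At Ddx58 the level intervals of the 3 platinum lists overlapped that of Ctrl and the level after IFNγ lay below it. At Cgas those of Oxali and Oxali + IFNγ overlapped that of Ctrl (24.6 to 30.5), while IFNγ (17.2 to 23.0) lay below and the upper bound of Cispl met the lower bound of Ctrl at 24.6. Among protein-coding genes with an open start site in Ctrl, whose median level was 91.4, Cgas stood above 19.5% of genes, Ddx58 above 20.6%, Trex1 above 57.6%, Tbk1 above 69.7% and Mavs above 76.5%.

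**Figure D1:**
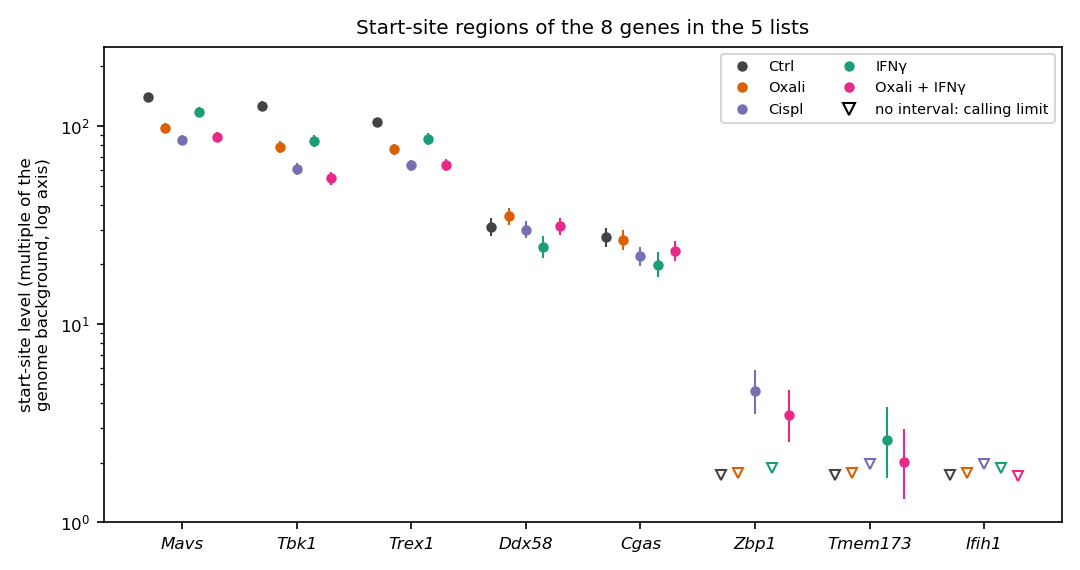
Start-site level of each of the 8 genes (log axis, multiples of the genome background) in the 5 lists, 1 point per pooled list with its 95% Poisson interval. Open triangles mark a list with no interval there, at the calling limit of that list. Mavs, Tbk1 and Trex1 lie between 54.3 and 140, Ddx58 and Cgas between 20.0 and 35.0, and the other 3 genes at 4.58 or below. For Tmem173 the region 128 bp downstream of the start is drawn, and not the neighbouring one listed in Ctrl.

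The remaining 3 genes were near the limit of detection at their start sites. Ifih1, which encodes the sensor of long double-stranded RNA, had no interval within 1 kb of a start site in any list. Its window of 50.5 kb of gene and both flanks held 2 regions in all, an intronic one after Oxali (pileup 37, level 3.28) and one 8468 bp upstream after Cispl (pileup 40, level 2.91). Zbp1 had none in Ctrl, Oxali or IFNγ, and a region 918 bp upstream after Cispl (pileup 63, level 4.58, 3.52 to 5.86) and after Oxali + IFNγ (pileup 45, level 3.49, 2.54 to 4.67). These levels are above the calling limits of 1.73, 1.77 and 1.87 in the lists that lack it. Tmem173 had a region of pileup 28 in Ctrl, 470 bp upstream of the start, and one 128 bp downstream of it after IFNγ (pileup 25) and, at a weaker q-value, after Oxali + IFNγ (pileup 26). All 3 values at Tmem173 lie at levels of 2.01 to 2.60, close to the calling limit, and the intervals of the 3 levels overlap.

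The sequences are those of open start sites, of the Ifih1 promoter, which had no region, and of regions gained in the platinum lists. They are read from the reference GRCm38 (mm10), not from the FVB/NJ cells, on the strand of the gene, up to 75 bases on either side of the highest summit with annotated UTR bases left out, and for Ifih1 the 150 bases before the start site from the RefSeq promoter table (GRCm38.p6). Capitals mark an AP-1 element, and no other searched motif occurs in these stretches.
Mavs start site, chr2:131233900-131234050, plus strand: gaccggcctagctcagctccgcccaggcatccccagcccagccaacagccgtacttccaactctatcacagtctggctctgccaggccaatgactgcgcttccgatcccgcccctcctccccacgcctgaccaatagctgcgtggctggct
Tbk1 start site, chr10:121586788-121586885, minus strand: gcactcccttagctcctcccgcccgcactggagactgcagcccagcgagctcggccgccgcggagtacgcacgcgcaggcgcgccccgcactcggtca
Ddx58 start site, chr4:40239829-40239901, minus strand: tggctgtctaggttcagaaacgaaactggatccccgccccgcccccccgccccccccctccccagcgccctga
Cgas start-site region, chr9:78442769-78442919, minus strand: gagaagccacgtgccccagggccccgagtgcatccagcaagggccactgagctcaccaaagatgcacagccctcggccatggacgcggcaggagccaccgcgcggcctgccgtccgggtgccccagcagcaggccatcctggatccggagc
Ifih1 promoter, no region in any list, chr2:62646256-62646405, minus strand: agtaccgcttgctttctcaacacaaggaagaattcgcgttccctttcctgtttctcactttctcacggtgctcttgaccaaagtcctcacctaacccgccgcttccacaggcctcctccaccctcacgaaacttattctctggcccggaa
Zbp1 upstream region, Cispl and Oxali + IFNγ lists, chr2:173219766-173219916, minus strand: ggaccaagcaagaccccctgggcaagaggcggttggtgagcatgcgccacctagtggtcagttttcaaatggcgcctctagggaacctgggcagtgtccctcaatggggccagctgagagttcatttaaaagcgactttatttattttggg
Ddx58 intron, the 3 platinum lists, chr4:40229863-40230013, minus strand: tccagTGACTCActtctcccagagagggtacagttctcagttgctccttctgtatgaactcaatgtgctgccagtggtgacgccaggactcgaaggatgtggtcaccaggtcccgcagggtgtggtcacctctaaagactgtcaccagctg
Trex1 upstream region, the 3 platinum lists, chr9:109068219-109068369, minus strand: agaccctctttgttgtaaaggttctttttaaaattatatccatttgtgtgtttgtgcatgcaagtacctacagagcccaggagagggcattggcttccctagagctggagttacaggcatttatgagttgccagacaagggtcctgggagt

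CpG content did not order these promoters by openness. The ratio of observed to predicted CpG in the 300 bases of the RefSeq table was 1.05 at Tbk1, 0.819 at Ifih1, 0.760 at Cgas, 0.714 at Ddx58, 0.667 at Mavs and 0.305 at Trex1, beside a median of 0.598 over 16522 protein-coding genes. Ifih1, with no region, was second highest, and Trex1, with a level of 104 in Ctrl, was lowest. The 300 bases end 50 bases after the start, while the summits at Trex1 and Cgas lie 417 and 393 bp downstream of it. The region of Trex1 also holds a start site of Atrip. The table matched 6 of the 8 genes, and Tmem173 and Zbp1 were not matched. The core of the interferon-stimulated response element, searched on both strands as a pair of GAAA tetramers with any dinucleotide between them, occurred in 2 of these 6 promoters against 3.47% of all. The match GAAACAGAAA began 32 bases after the Ifih1 start and TTTCGATTTC, which is the core on the other strand, 2 bases after the RefSeq start of Ddx58. A match describes letters and not a bound site.

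Against Ctrl, the start-site levels of the 5 open genes were mostly lower in every treated list, as were those of open start sites in general. Over 19859 start-site regions strong in all 5 lists, the median level relative to Ctrl changed by -0.15 on the log2 scale after Oxali, -0.36 after Cispl, -0.40 after IFNγ and -0.45 after Oxali + IFNγ. These changes, used below as the shift, are ratios of median levels, namely 0.902, 0.780, 0.759 and 0.733. The median of the ratios of single regions was 0.838, 0.753, 0.741 and 0.717 in that order. Over the 5 genes the median ratio to Ctrl was 0.730 after Oxali, 0.607 after Cispl, 0.793 after IFNγ and 0.626 after Oxali + IFNγ. Divided by the shift of all start sites, the medians became 0.809, 0.778, 1.05 and 0.854, so the direction after IFNγ depends on the scaling. None of the 5 genes was 1.5-fold higher in any list, against 14.6% of all start-site regions after Oxali, 12.8% after Cispl, 1.46% after IFNγ and 15.2% after Oxali + IFNγ. A level at least 1.5-fold lower was reached by 1 gene after Oxali (19.1% of all start-site regions were that much lower), by 3 after Cispl (33.8%), by 1 after IFNγ (31.0%) and by 3 after Oxali + IFNγ (42.2%). After division by the shift these counts were 0, 1, 0 and 1. The shares of all start-site regions on that scale were not computed per list, so whether these counts are unusual cannot be read.

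On the first scale, and so also relative to the shift, Tbk1 had the lowest ratio of the 5 genes in every treated list, while over the local background Cgas (0.778) and Ddx58 (0.803) were lower than Tbk1 (0.804) after IFNγ. Its ratio to Ctrl was 0.620 after Oxali (95% interval 0.570 to 0.674), 0.482 after Cispl (0.443 to 0.525), 0.666 after IFNγ (0.611 to 0.725) and 0.430 after Oxali + IFNγ (0.393 to 0.471). Relative to the shift of all start sites these were 0.688, 0.618, 0.877 and 0.586, each still below 1 over its interval. Ddx58 was at the other end in the platinum lists, except over the local background after Oxali + IFNγ, where Cgas (0.875) was above Ddx58 (0.799). The ratio of Ddx58 to Ctrl was 1.13 after Oxali (0.975 to 1.30), 0.966 after Cispl (0.838 to 1.11), 0.793 after IFNγ (0.671 to 0.936) and 1.00 after Oxali + IFNγ (0.869 to 1.16). Relative to the shift it was 1.25 (1.08 to 1.44), 1.24 (1.07 to 1.43), 1.05 (0.885 to 1.23) and 1.37 (1.19 to 1.58). Over the local background it was 0.888, 0.812, 0.803 and 0.799, so that above or below Ctrl depends on the scaling in every treated list. Cgas lay between 0.727 after IFNγ and 0.970 after Oxali, Mavs between 0.606 after Cispl and 0.835 after IFNγ, and Trex1 between 0.607 after Cispl and 0.825 after IFNγ. Relative to the shift the direction after IFNγ turned at both Mavs, with 1.10 (1.02 to 1.19), and Trex1, with 1.09 (0.995 to 1.19). At Cgas it turned in the 3 platinum lists, to 1.08 (0.917 to 1.26) after Oxali, 1.03 (0.874 to 1.20) after Cispl and 1.17 (0.995 to 1.37) after Oxali + IFNγ, with intervals that cover 1, and stayed at 0.959 (0.798 to 1.15) after IFNγ.

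The ratio of a start site went with its level in Ctrl over the whole genome. Start-site regions with a Ctrl level of 50 or more had median ratios of 0.706 after Oxali, 0.614 after Cispl, 0.673 after IFNγ and 0.515 after Oxali + IFNγ, and those with a Ctrl level from 10 to 50 had 1.00, 0.923, 0.816 and 0.936. Mavs, Tbk1 and Trex1 belong to the first class, and Ddx58 and Cgas to the second. Of the 20 ratios of the 5 genes, 8 were above the median of their class and 1 was outside its 10th to 90th percentile. That one was Tbk1 after Cispl, whose ratio exceeded that of 6.18% of its class. Mavs and Trex1 after IFNγ lay near the upper edge, above 89.6% and 88.1% of their class. The first class is wide and the ratio falls with the level within it. Against the narrower bins of like Ctrl level drawn in the plot of ratio against level, a comparison added after the values were seen, 11 of the 20 ratios were above the median and 3 outside the 10th to 90th percentile. These were Tbk1 after Cispl, above 5.06% of its bin, and Mavs after IFNγ and after Oxali + IFNγ, above 94.6% and 90.6%.

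**Figure D2:**
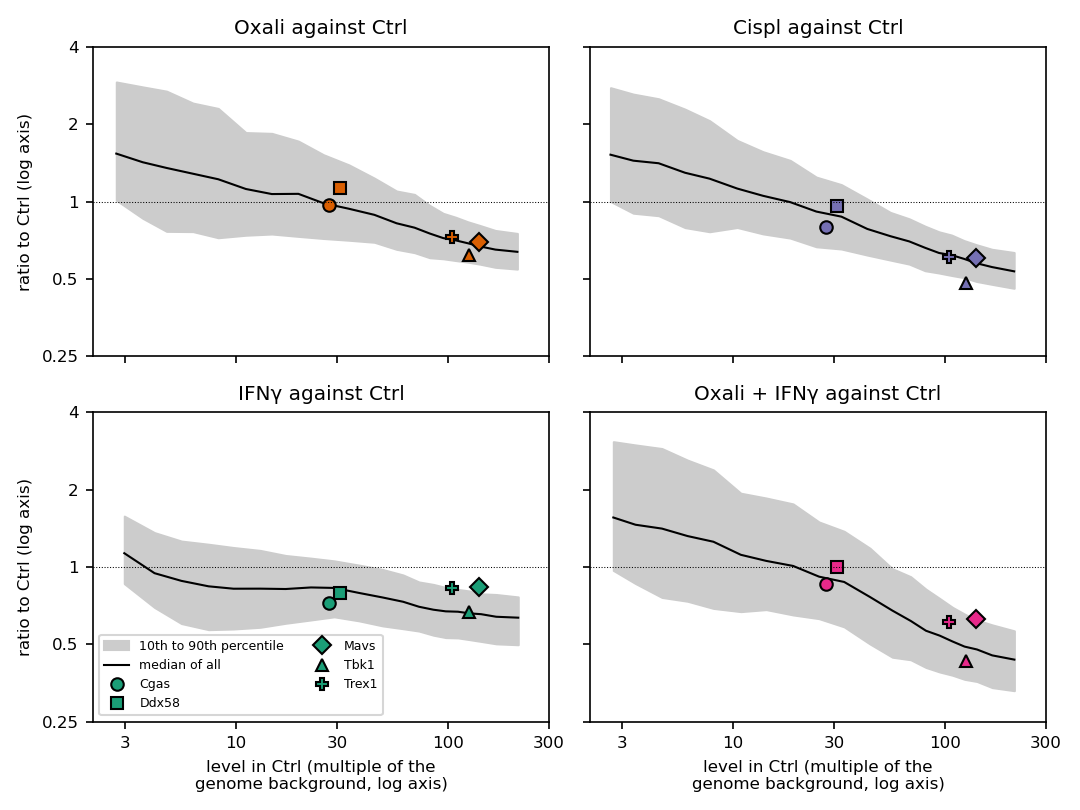
Ratio of the start-site level to Ctrl (log axis) against the level in Ctrl (log axis, multiples of the genome background), 1 panel per treated list. The black line is the median and the grey band the 10th to 90th percentile over all start-site regions strong in both lists, in 20 bins of equal size, and the symbols are 5 of the 8 genes. The line is lower at the highest Ctrl levels than at the lowest in all panels, though nearly flat after IFNγ at the levels of Cgas and Ddx58, and the symbols of Cgas and Ddx58 sit higher than those of Mavs, Tbk1 and Trex1 in the 3 platinum panels.

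Cisplatin and oxaliplatin are platinum complexes that share the metal and differ in their carrier ligand, and both were given at 2 µM for 48 h. All 5 pairs of start-site levels were lower after Cispl than after Oxali, by ratios of 0.777 (0.706 to 0.855) at Tbk1, 0.824 (0.700 to 0.971) at Cgas, 0.831 (0.756 to 0.915) at Trex1, 0.859 (0.746 to 0.988) at Ddx58 and 0.871 (0.802 to 0.947) at Mavs. The median of this ratio over all start-site regions strong in both lists was 0.893, which is not the ratio of median levels used next. Relative to the median start-site region of each list the ratios were 0.898 (0.816 to 0.989) at Tbk1, 0.953 (0.810 to 1.12) at Cgas, 0.961 (0.874 to 1.06) at Trex1, 0.992 (0.862 to 1.14) at Ddx58 and 1.01 (0.927 to 1.09) at Mavs. On that scale only the interval of Tbk1 among the 5 lay wholly on one side of 1. A region within 1 kb of a start site of another Ddx58 transcript, with its summit 25638 bp downstream of the main start, was lower after Cispl on both scales. Its pileup was 75 against 127 after Oxali, a ratio of 0.484 (0.359 to 0.648), or 0.559 (0.414 to 0.750) relative to the shift. Its ratio to Ctrl was 1.42 (1.08 to 1.88) after Oxali and 0.689 (0.503 to 0.942) after Cispl, or 1.58 (1.20 to 2.08) and 0.883 (0.644 to 1.21) relative to the shift. Of 8 start-site regions at the 8 genes, including internal and neighbouring ones, this was the only one at least 1.5-fold lower after Cispl than after Oxali (6.50% over the genome) and none was that much higher (3.78%), and of 12 other regions none was that much higher (7.24%) or lower (13.7%).

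Away from the main start sites the lists differed in which regions they held. Strong merged regions numbered 20 in Ctrl, 21 after Oxali, 32 after Cispl, 20 after IFNγ and 23 after Oxali + IFNγ, and 17 of the 37 were strong in all 5 (45.9%, against 41.0% over the genome). A region was gained when it was strong with a treatment and Ctrl had no interval there. After Cispl 13 regions of 33 strong in either list were gained (39.4%, against 35.0% over the genome), after Oxali 3 of 23 (13.0%, against 29.3%), after IFNγ 2 of 22 (9.09%, against 10.1%) and after Oxali + IFNγ 5 of 25 (20.0%, against 36.1%). Lost regions numbered 2 after Oxali (6.29% over the genome), 1 after Cispl (3.88%), 1 after IFNγ (13.7%) and 2 after Oxali + IFNγ (4.84%). At least 1 gained region lay at 3 of the 8 genes after Oxali (58.9% of protein-coding genes), 7 after Cispl (68.4%), 2 after IFNγ (30.5%) and 5 after Oxali + IFNγ (66.7%).

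Most of the regions gained after Cispl were weak. Of its 13 gained regions 5 were at Ddx58, 2 each at Zbp1 and Tbk1, and 1 each at Cgas, Ifih1, Mavs and Trex1, with a median level of 2.91 against 3.41 for all regions gained after Cispl. In 8 of the 37 strong regions the Cispl list was the only one with an interval (21.6%, against 8.95% over the genome). When each list was cut to its 100000 regions of highest significance, 3 regions of 21 strong in either list were gained after Cispl (against 15.2% over the genome), all 3 of which were also gained with the full lists. Relative to Oxali, 12 regions were gained after Cispl (36.4% of 33, against 18.3% over the genome) and 1 was lost (9.09% over the genome). Adding IFNγ to oxaliplatin gave 3 gained regions of 24 relative to Oxali (12.5%, against 15.3%) and 1 lost (5.36%).

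**Figure D3:**
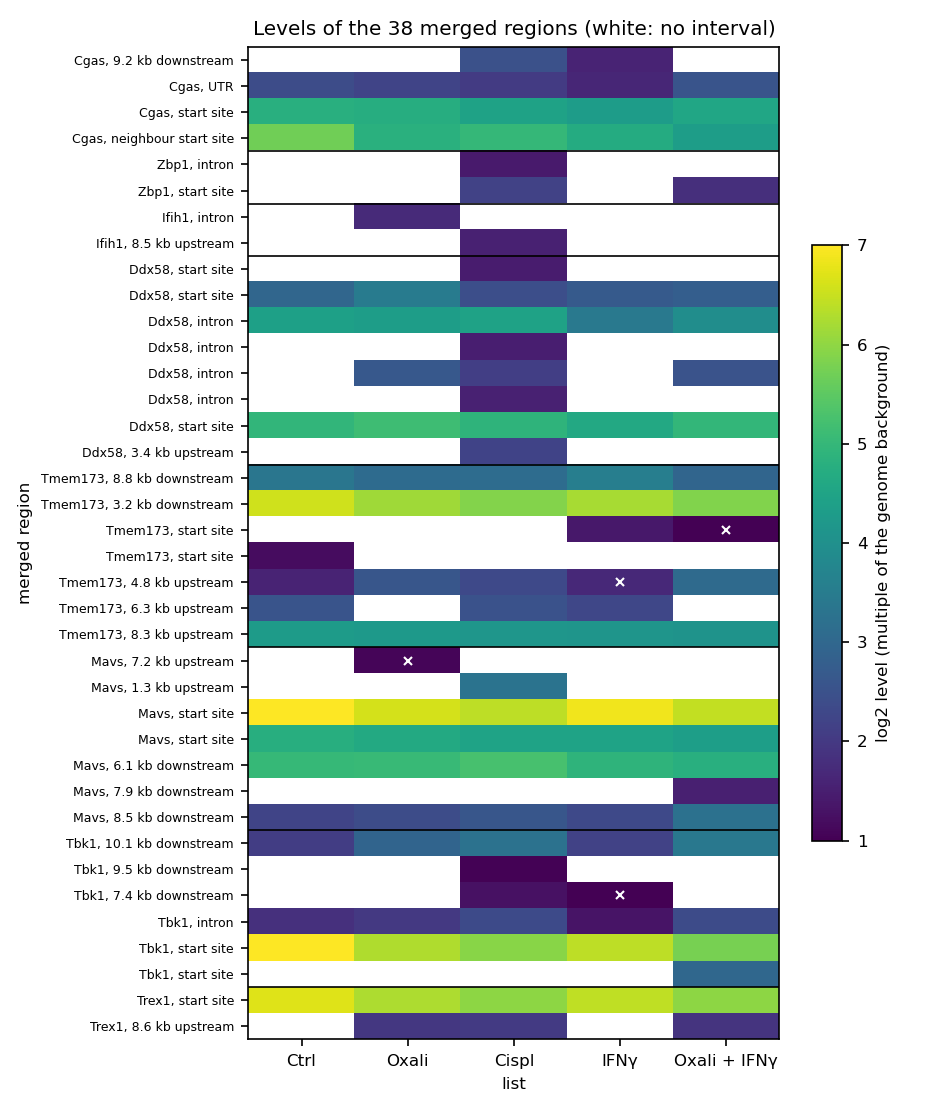
Levels of the 38 merged regions (rows, by gene and place) in the 5 lists (columns), on a log2 colour scale of multiples of the genome background. White cells have no interval and crosses mark intervals with a q-value above 0.01. The start sites of Mavs, Tbk1 and Trex1 and the region downstream of Tmem173 are the brightest in every list, while 8 rows are filled in the Cispl column alone.

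Among the gained regions, 2 were called in all 3 platinum lists and in neither Ctrl nor IFNγ (5.41% of the 37, against 11.5% over the genome). One lies in an intron of Ddx58 (chr4:40229776-40230124), 9890 bp downstream of the start, with a pileup of 71 after Oxali, 60 after Cispl and 75 after Oxali + IFNγ, or levels of 6.30 (4.92 to 7.94), 4.36 (3.33 to 5.61) and 5.81 (4.57 to 7.28). The calling limits where it was missing were 1.73 in Ctrl and 1.87 after IFNγ. The other lies 8560 bp upstream of Trex1 in an intron of Atrip (chr9:109068195-109068392), with pileups of 44, 56 and 48 and levels of 3.90, 4.07 and 3.72. At the Ddx58 intron Cispl was 0.692 times Oxali (0.482 to 0.990), or 0.800 times (0.558 to 1.14) relative to the shift of start sites, so an order depends on the scaling. For regions without a start site, such as this one, the genome median of this ratio was 0.945. At the Trex1 region the same ratio was 1.04 (0.690 to 1.58), which leaves no order between the drugs. The sequence of the Ddx58 intron above holds an AP-1 element.

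No region was strong in all 4 treated lists and missing from Ctrl (2.08% over the genome). The only region of Ctrl missing from every treated list was the one 470 bp upstream of Tmem173 with a pileup of 28 (2.70% of the 37, against 1.16% over the genome). Its absence is within counting error, since its level of 2.31 had an interval of 1.53 to 3.33 and the calling limits of the other lists were 1.70 to 1.96. Another region, 6332 bp upstream of Tmem173 and chosen after its values were seen, had a pileup of 72 in Ctrl, 79 after Cispl and 47 after IFNγ and was missing from both oxaliplatin lists. Levels were 5.93, 5.74 and 4.88 where it was present, and the calling limits over the local background were 2.93 after Oxali and 2.79 after Oxali + IFNγ.

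Among regions away from start sites that were strong both in Ctrl and in the treated list, those at the 8 genes had a median ratio to Ctrl of 0.997 after Oxali (10 regions, 1.21 over the genome), 1.03 after Cispl (11 regions, 1.16), 0.860 after IFNγ (10 regions, 0.887) and 0.993 after Oxali + IFNγ (10 regions, 1.21). At least 1.5-fold higher were 2 of them after Oxali (32.9% over the genome), 2 after Cispl (28.3%), 0 after IFNγ (4.73%) and 3 after Oxali + IFNγ (34.1%). At least 1.5-fold lower were 0 after Oxali (4.43%), 1 after Cispl (6.23%), 2 after IFNγ (14.8%) and 1 after Oxali + IFNγ (6.70%).

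The 3 higher regions lay at Tbk1, Tmem173 and Mavs. The one at Tbk1, the strongest of its window without a start site, has its summit 10102 bp downstream of the gene (chr10:121536019-121536883). Its pileup was 52 in Ctrl, 86 after Oxali, 131 after Cispl, 44 after IFNγ and 137 after Oxali + IFNγ. The ratio to Ctrl was 1.78 (1.25 to 2.56) after Oxali, 2.22 (1.60 to 3.13) after Cispl, 1.07 (0.698 to 1.63) after IFNγ and 2.48 (1.79 to 3.48) after Oxali + IFNγ. The 3 platinum lists were thus above Ctrl by more than counting error, while the start site of Tbk1 was lower in the same lists.

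The regions at Tmem173 and Mavs were picked with their values known. The region 4815 bp upstream of Tmem173 had pileups of 37, 69, 69, 31 and 109 in the order Ctrl, Oxali, Cispl, IFNγ and Oxali + IFNγ. Its ratio to Ctrl was 2.01 (1.33 to 3.08), 1.64 (1.09 to 2.52), 1.06 (0.634 to 1.75) and 2.77 (1.89 to 4.14), and after Oxali + IFNγ it was 1.38 times that after Oxali (1.01 to 1.89). The region 8487 bp downstream of Mavs had pileups of 57, 59, 84, 48 and 122, and a ratio to Ctrl of 1.11 (0.761 to 1.63), 1.30 (0.918 to 1.85), 1.06 (0.708 to 1.59) and 2.01 (1.46 to 2.81). Its level in the list of both agents was 1.81 times that after Oxali (1.31 to 2.51), the only one of 12 such regions past 1.5-fold higher (4.10% over the genome, and 2.50% lower). The intervals of Oxali, Cispl and IFNγ against Ctrl there covered 1, but relative to the shift of start sites that of Cispl did not, at 1.67 (1.18 to 2.37). The genome median after Cispl was 1.16 for regions without a start site, to which this region belongs.

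**Figure D4:**
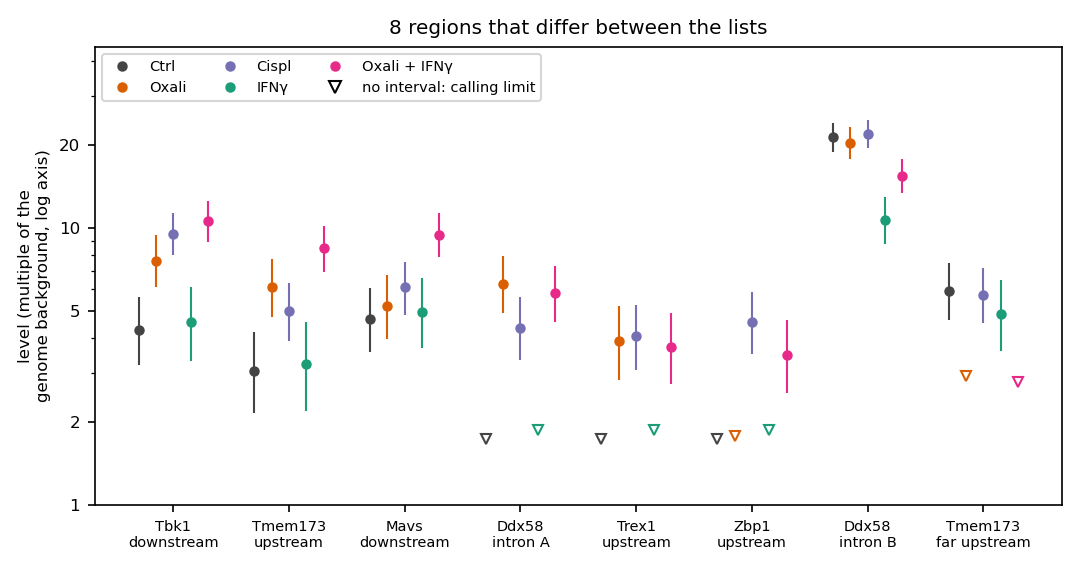
Levels (log axis, multiples of the genome background) of 8 regions that differ between the lists, 1 point per pooled list with its 95% Poisson interval. Open triangles mark lists with no interval, at the calling limit for the local background. Intron A of Ddx58 is the region of the 3 platinum lists and intron B the one lowest after IFNγ. The regions at Tbk1 and upstream of Tmem173 are highest after Oxali + IFNγ, at levels of 10.6 and 8.45.

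Lower regions were found in an intron of Ddx58 and downstream of Tmem173. The Ddx58 intron region (chr4:40217851-40218917), 21253 bp downstream of the start, had a pileup of 258 in Ctrl, 229 after Oxali, 301 after Cispl, 103 after IFNγ and 199 after Oxali + IFNγ. The ratio after IFNγ was 0.504 (0.397 to 0.635), or 0.664 (0.523 to 0.837) relative to the shift, and that after Oxali + IFNγ 0.726 (0.600 to 0.876), or 0.989 (0.818 to 1.19). Both ratios were thus below Ctrl by more than counting error, and relative to the shift of start sites only the first was. The regions of this paragraph hold no start site. Over such regions the genome median ratio was 1.16 after Cispl, 0.887 after IFNγ and 1.21 after Oxali + IFNγ. Dividing by the shift of start sites thus does not set them against regions of their kind. The region 3207 bp downstream of Tmem173, in the last stretch of the gene 1700066B19Rik, was the strongest of that window, with pileups of 1158, 792, 817, 712 and 755. Its ratios of 0.622 after Cispl and 0.613 after Oxali + IFNγ became 0.798 and 0.836 relative to the shift. The strongest such region at Mavs, 6137 bp downstream, had pileups of 391, 374, 524, 287 and 357. Its ratio was 1.18 (1.03 to 1.35) after Cispl, 0.926 (0.792 to 1.08) after IFNγ and 0.859 (0.742 to 0.994) after Oxali + IFNγ. Relative to the shift of start sites these were 1.51 (1.33 to 1.73), 1.22 (1.04 to 1.43) and 1.17 (1.01 to 1.36), so on that scale the direction turned in both lists with IFNγ. Among regions without a start site, 1.18 lay near the genome median of 1.16, 0.926 near 0.887, and 0.859 below 1.21. The strongest such region at Cgas lay in a UTR of the gene, 10565 bp downstream of the start, with pileups of 64, 53, 57, 30 and 76. Its ratio was 0.591 (0.370 to 0.926) after IFNγ and 1.12 (0.790 to 1.58) after Oxali + IFNγ. Relative to the shift of start sites these were 0.779 (0.488 to 1.22) and 1.52 (1.08 to 2.16), so which of them differs from Ctrl beyond counting error depends on the scaling. Both ratios to Ctrl were below the genome medians of regions without a start site, 0.887 and 1.21.

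Each searched motif was found in 0 to 3 of the 37 strong regions, too few to set apart from the genome shares. An AP-1 element (TGANTCA, both strands) lay within 75 bases of the summit in 3 of the 37 strong regions (8.11%), beside 12.5% of start-site regions and 20.8% of other regions of the genome. The 3 were the intron region of Ddx58 found in the platinum lists, the region downstream of Tbk1 and the one 6332 bp upstream of Tmem173, of which the first 2 were higher in the platinum lists and the last was missing from both oxaliplatin lists. The NF-κB consensus occurred at the Ddx58 start site and 4815 bp upstream of Tmem173 (5.41% of the 37, beside 2.24% and 1.92%). The response element core occurred at the Ddx58 start site alone among the 37 (2.70%, beside 1.34% and 1.91%), a GAS element (TTCNNNGAA) in 1 region 9209 bp downstream of Cgas (beside 3.51% and 4.53%), and the CRE (TGACGTCA) in none (beside 1.12% and 0.272%).

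The wider pathway was read from 31 further genes of sensing and its signal transduction, of which 30 had an open start site in every list and Enpp1, whose product degrades cyclic GMP-AMP, had none. Their median ratio to Ctrl was 0.793 after Oxali, 0.727 after Cispl, 0.719 after IFNγ and 0.627 after Oxali + IFNγ. A level at least 1.5-fold higher was seen at 4, 2, 0 and 2 genes in that order, against 14.6%, 12.8%, 1.46% and 15.2% of start-site regions, and a level at least 1.5-fold lower at 8, 13, 11 and 19 genes (26.7%, 43.3%, 36.7% and 63.3% of the 30), against 19.1%, 33.8%, 31.0% and 42.2% of start-site regions. Relative to the shift the medians were 0.879, 0.931, 0.948 and 0.854, with 4, 4, 0 and 4 genes higher and 4, 5, 2 and 8 lower. The shares of all start-site regions on that scale were not computed per list, so these counts cannot be set against the genome.

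The genes that were higher were sensors with a low level in Ctrl. Ddx60, which encodes a helicase linked to RNA sensing, had pileups of 66 in Ctrl, 117 after Oxali, 135 after Cispl, 55 after IFNγ and 230 after Oxali + IFNγ. Its ratio to Ctrl was 1.91 (1.40 to 2.62), 1.80 (1.33 to 2.46), 1.05 (0.721 to 1.53) and 3.28 (2.48 to 4.38), the highest of the 30 genes after Oxali + IFNγ. Aim2, a DNA sensor of inflammasomes, had pileups of 59, 100, 137, 41 and 83, with ratios of 1.83 after Oxali and 2.05 after Cispl. The endosomal sensor genes Tlr9 (pileups of 38, 65, 64, 33 and 68) and Tlr7 (81, 142, 115, 32 and 126) had ratios of 1.84 and 1.89 after Oxali, and Tlr7 one of 0.498 after IFNγ. The 4 genes had Ctrl levels of 3.13 to 6.67. Start-site regions below a Ctrl level of 10 had genome medians of 1.36 after Oxali, 1.36 after Cispl, 0.934 after IFNγ and 1.38 after Oxali + IFNγ, and 2.63, 2.43, 1.37 and 2.76 at the 90th percentile, which Ddx60 passed after Oxali + IFNγ.

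At the other end, 5 of the 30 genes (16.7%) were at least 1.5-fold lower in all 4 treated lists, against 12.1% of start-site regions strong in all 5 lists and 23.7% of those with a Ctrl level of 50 or more, to which the 5 genes belong. They were the DNA sensor gene Ddx41, the RNA helicase gene Dhx9, Myd88, which encodes an adaptor of Toll-like receptors, and the ubiquitin ligase genes Trim25, which acts on RIG-I, and Rnf5, which acts on STING. Ddx41 had ratios of 0.592, 0.532, 0.579 and 0.361 from a Ctrl level of 100.3, and Dhx9 of 0.532, 0.503, 0.482 and 0.298 from 76.7. Myd88 had 0.638, 0.519, 0.611 and 0.395 from 168, Trim25 0.625, 0.602, 0.597 and 0.455 from 85.2, and Rnf5 0.498, 0.411, 0.653 and 0.352 from 187. After division by the shift only Dhx9 of the 30 genes was that much lower in all 4 lists (1.17% of start-site regions), and the other 4 were below Ctrl. Irf3, which encodes the transcription factor that TBK1 phosphorylates, had 0.578, 0.504, 0.689 and 0.426 from 108. The cell death partners Ripk1, Ripk3, Fadd and Casp8 had a median ratio of 1.04, 0.873, 0.796 and 0.898. None of them was at least 1.5-fold lower after Oxali (19.1% of start-site regions) or Cispl (33.8%). Ripk3 was after IFNγ (0.636, against 31.0%) and Ripk1 after Oxali + IFNγ (0.661, against 42.2%). None was that much higher in the 4 lists (14.6%, 12.8%, 1.46% and 15.2%). Ripk1, from a Ctrl level of 120, lay above the median of 0.515 for start-site regions of 50 or more. Ripk3, from 10.1, lay below the median of 0.816 for those from 10 to 50.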

How the data were processed

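ATAC-seq reads of 10 libraries, 2 per group, were processed by the authors with the ENCODE pipeline: trimming with cutadapt, alignment to mm10 with Bowtie2 (2.2.8), removal of poorly mapped, duplicate and mitochondrial reads, pooling of the 2 libraries of a group, peak calling with MACS2 (2.1.0) on read ends shifted and extended to 150 bases without a control, and blacklist filtering. The deposited fold (ratio) of a peak is its pileup plus 1 over its local background plus 1. Its −log10 p and −log10 q, also deposited, come from MACS2. The Cispl list ends at a −log10 p of 2.99, the others at 2.00.

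The whole-number pileup was solved from the deposited fold and p, which succeeded for 100% of summits (tolerance 0.01 in −log10 p). The depth itself was not given per list, and the lowest common background stood in for it. Summits of 1 interval were taken as 1 region with its highest summit, and regions of the lists overlapping by 1 bp were merged. Start sites were those of all transcripts in GENCODE M21. Levels have exact Poisson intervals and ratios exact conditional binomial intervals, both at 95%. Scripts ran in Python 3.11.15 with scipy 1.17.1 and pysam 0.24.0 and were tested on simulated data.

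The members, gene lists and thresholds were chosen with earlier results of these data known. Named were all 8 genes with their start-site regions, regions called in every treated list or every platinum list alone or in Ctrl alone, the strongest region of a window without a start site, and other pathway genes past 1.5-fold, of which the text gives those higher, those lower in all 4 treated lists, and Irf3, Ripk1 and Ripk3. Regions named outside this rule are marked. The promoter of Ifih1 was added after its values were seen. No sequence of chromosome 18 is printed. Some prostate epithelial markers of the fixed list are not reported here.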

Additional observations from a re-analysis of the deposited data

How the results depend on the processing

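The counts at the 8 genes were recomputed under 6 alternatives, gained and lost regions also under an overlap of at least 50% of the shorter region and, chosen after seeing the data, without regions within 500 bp of the other list, and start-site ratios under 3 scalings or summits. Of 106 values for counts and medians, 64 stayed within the limits set (1.5 times for counts, the counting interval for medians) and 42 moved, and of 60 ratios of single genes 26 stayed and 34 moved, with none reversed past 1.5-fold. Windows of 5 kb left 21 strong regions with Cispl and 13 with IFNγ, 8, 1 and 3 gained with Cispl, IFNγ and Oxali + IFNγ, and 1 lost with Oxali and with Oxali + IFNγ. Gene bodies alone left 10, 12, 15, 11 and 11 strong regions (Ctrl, Oxali, Cispl, IFNγ, Oxali + IFNγ), 5, 1 and 1 gained with Cispl, IFNγ and Oxali + IFNγ, and 0 lost with any treatment. At equal ranks, where cutting Ctrl can make new calls, there were 19 strong and 3 gained with Cispl, 1 gained with IFNγ and 2 with Oxali + IFNγ, and 2 lost with Cispl and 1 with Oxali + IFNγ. A q-value of at most 1e-05 left 1 gained with IFNγ and 1, 0, 0 and 1 lost with Oxali, Cispl, IFNγ and Oxali + IFNγ. Without regions near the other list, 1 region was gained and 0 lost with IFNγ, and 3 were gained and 1 lost with Oxali + IFNγ. All deposited regions, 1 p threshold for all lists and the 50% overlap moved no count by over 1.5 times. Scaled by the median start-site region, the median ratio of the 5 genes was 0.809, 0.778, 1.05 and 0.854 in the treated lists. Over the local background it was 0.715 with Cispl and 0.777 with Oxali + IFNγ, and at the summit nearest to the start site 0.828 with Oxali and 0.815 with Oxali + IFNγ. Smaller windows hold fewer regions by construction, and the cause of the other moves was not tested. No paired analysis was possible because the libraries of a group were pooled before peak calling, and for the same reason no library could be left out. Regions near the calling limits of 18 to 27 read ends are the least reliable, above all in the IFNγ list, the shallowest at 79.3% of the depth of Ctrl.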
